A study of Homo sapiens with 6 samples.

Results

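The genes described here write and erase monoubiquitin on a lysine in the tail of histone H2A. There are 10, of 62700 genes in the deposited table, picked by symbol for their known function, with no threshold on a measured value but with earlier results of these data known: the E3 ligase genes RING1 and RNF2, the partner genes BMI1, PCGF2, PCGF1 and PCGF6, and the deubiquitinase genes BAP1, USP16 and MYSM1 with the BAP1 cofactor gene ASXL1. Each symbol matched 1 gene ID. The cells were A549, a widely used epithelial line from a human lung adenocarcinoma, grown in RPMI-1640 with fetal bovine serum, and their mRNA was sequenced. The sgH2AC19 group (3 libraries) carries a guide RNA against H2AC19, which codes for a histone H2A made during DNA replication, and the design text calls it a knockout derivative of A549. The sgControl group (3 libraries) carries a control guide and has the genotype label WT. Whether the knockout cells are 1 clone or a pool, and whether replicates were separate cultures, is not given in the sources used here, so the p-values below reflect library-to-library spread that may be technical only.

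Polycomb repressive complex 1 (PRC1) places a single ubiquitin on H2A at genes that are to stay silent. RING1 and RNF2 are alternative catalytic subunits, and each works in a pair with 1 member of the PCGF family, which decides the type of complex. BMI1 and PCGF2 form canonical PRC1, which binds trimethylated histone H3 through CBX proteins. PCGF1 forms a variant complex with KDM2B and BCOR that sits at unmethylated CpG islands, and PCGF6 one with MGA, L3MBTL2 and E2F6. BAP1, activated by an ASXL protein, takes the ubiquitin off again, as do USP16 and MYSM1.

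The libraries held 35681162 to 45738439 reads, recovered from the spacing of the FPKM values (fragments per length of gene model, relative to the library total). H2AC19 and its near-identical copy H2AC18 were listed at 0 FPKM in all 6 libraries, so neither checks the labels, and each direction below rests on them. The sample labels were checked against marker lists. The summed FPKM of 7 epithelial markers was 754 to 791 in sgH2AC19 and 586 to 623 in sgControl libraries, with KRT8, KRT18, EPCAM and CDH1 called higher and KRT19 lower, while NAPSA and SFTPB, made by differentiated alveolar cells, stayed under 1 FPKM. The 7 endothelial markers summed to 0.221 to 0.288 FPKM in sgH2AC19 and 0.18 to 0.271 in sgControl. The 7 leukocyte markers summed to 2.50 to 3.59 FPKM in sgH2AC19 and 1.96 to 2.75 in sgControl, mostly CD14, while CD3E was at 0 in all libraries. The 7 fibroblast markers summed to 6.51 to 7.10 FPKM in sgH2AC19 and 4.38 to 4.94 in sgControl. Of the 3 fibroblast markers tested COL1A1 and LUM were called higher, and THY1 was not called (log2 fold change 0.07, limma adjusted p = 0.615). Among those under the filter, COL1A2 was at 0.00518 FPKM or less and DCN at 0.0391 or less. The part of these markers in the results below was not tested. In bulk RNA, fewer cells of a type and less RNA per cell cannot be told apart.

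All 10 genes were detected in every library and passed the filter of 1 FPKM in at least 3 libraries, each of them in both groups. A single one was called: PCGF1 was lower in sgH2AC19 by 0.30 on the log2(FPKM + 1) scale, and 0 of the 10 were called higher (limma, Benjamini-Hochberg adjusted p below 0.05 over 12871 genes). The background is 23.1% of all genes tested called in either direction, 12% higher and 11% lower, so 1 of 10 is no more than the share among genes in general. At an unadjusted limma p under 0.05 the genes were 1 higher (PCGF6) and 2 lower (PCGF1 and BAP1), against 37.6% of all genes tested. The median log2 fold change was −0.06 over the 10 genes and −0.01 over all genes tested, and the median absolute log2 fold change was 0.08 over the 10 and 0.13 over all. The 3 libraries of one group lay apart from the 3 of the other for 2 of the 10, PCGF1 and PCGF6, as they did for 43.2% of all genes tested.

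**Figure D1:**
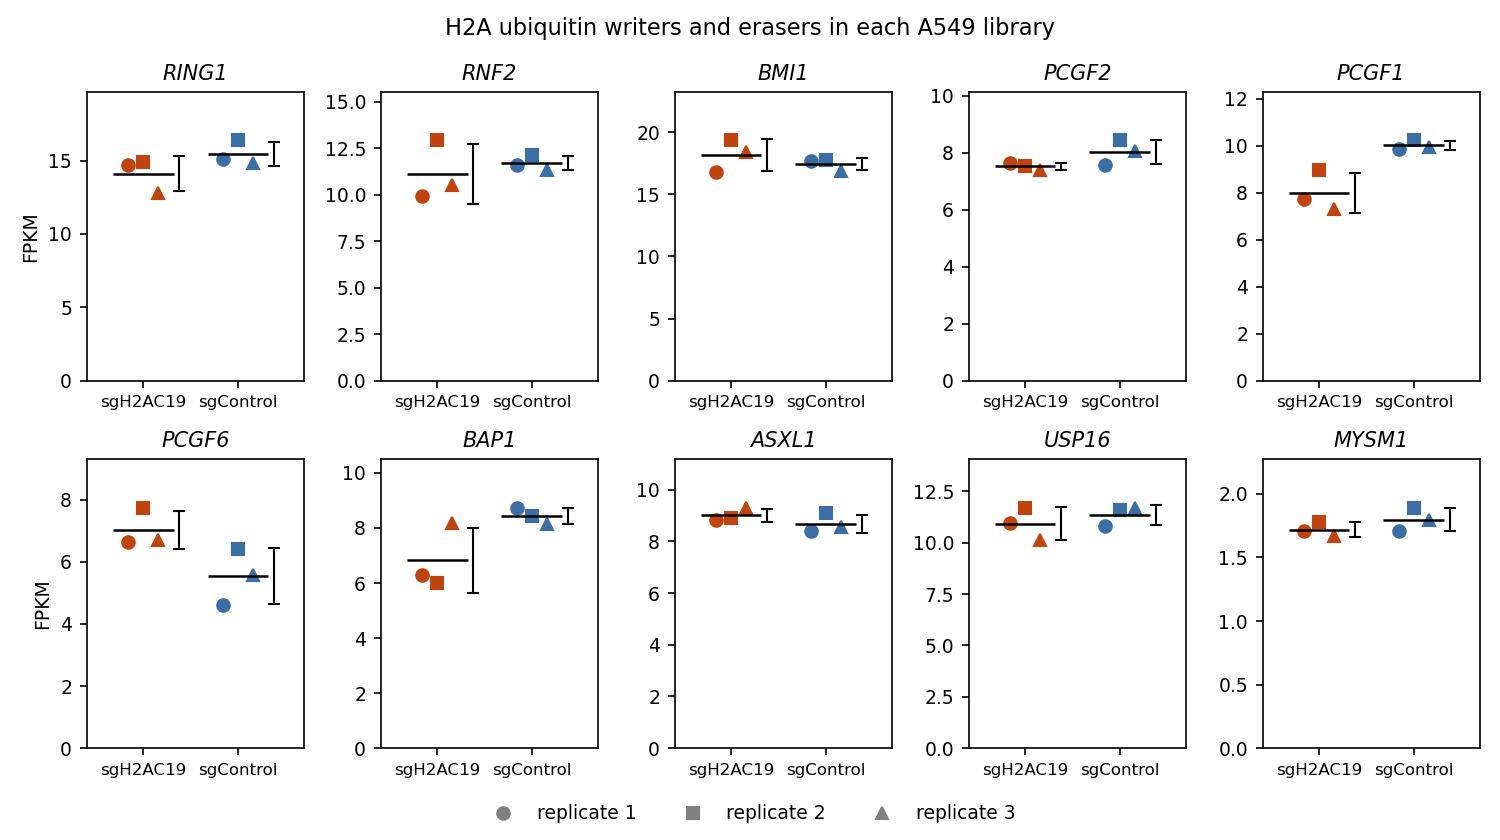
FPKM of each of the 10 genes (y axes, each from 0) in sgH2AC19 and sgControl libraries. Symbols mark the replicate number, horizontal lines the mean and error bars the SD (n = 3 each). PCGF1 is at 7.31 to 8.95 FPKM in sgH2AC19, under all sgControl libraries, while for RING1, RNF2, BMI1, PCGF2, BAP1, ASXL1, USP16 and MYSM1 the groups overlap.

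In level, BMI1 led the set and MYSM1 stood last in both groups. In the sgH2AC19 libraries BMI1 was at 16.8 to 19.4 FPKM, RING1 at 12.8 to 14.9, RNF2 at 9.91 to 12.9 and USP16 at 10.1 to 11.7. In sgControl libraries BMI1 was at 16.9 to 17.8 FPKM, RING1 at 14.8 to 16.4, RNF2 at 11.4 to 12.1 and USP16 at 10.8 to 11.7. Within the sgControl libraries RNF2 and USP16, ASXL1 and BAP1, and BAP1 and PCGF2 are neighbours in this order whose ranges overlap, and the other neighbours do not. Within the sgH2AC19 libraries the ranges of RING1 and RNF2 overlap, as do those of RNF2 and USP16 and of ASXL1 and PCGF1. The ranges of PCGF1, PCGF2, PCGF6 and BAP1 overlap there as well. Each mean over all libraries lay above that of 54.6% (PCGF6) to 82.4% (BMI1) of the genes tested, except MYSM1, above 16.3%. FPKM divides by the length of the gene model, and that length, recovered from the values, was 27812 bases for MYSM1, 3.57 times its longest transcript in GENCODE 29. MYSM1 rested on 1726 to 2176 reads per library, more than the 484 to 706 of PCGF1, whose recovered length was 1744 bases.

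The genes of both catalytic subunits were not called. RING1 (ENSG00000204227, chromosome 6 from 33208495 to 33212722 on the plus strand, GENCODE 29, GRCh38) was at 14.7, 14.9 and 12.8 FPKM in sgH2AC19 replicates 1 to 3, against 15.1, 16.4 and 14.8 in sgControl replicates 1 to 3. Its ranges overlap through the sgH2AC19 replicate 2 library, and sgH2AC19 replicate 3 is the lowest of the 6. The log2 fold change was −0.12 (SE 0.0696, 95% interval −0.29 to 0.04, limma adjusted p = 0.241).

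RNF2 (ENSG00000121481, chromosome 1 from 185045364 to 185102608, plus strand), the paralog of RING1, was at 9.91, 12.9 and 10.5 FPKM in sgH2AC19 and at 11.6, 12.1 and 11.4 FPKM in sgControl. Both the highest and the lowest of the 6 values are sgH2AC19 libraries, so the groups overlap fully. The log2 fold change was −0.08 (SE 0.0907, 95% interval −0.29 to 0.14, limma adjusted p = 0.587). RNF2 made up 40.3%, 46.5% and 45.1% of the summed FPKM of both ligases in sgH2AC19, against 43.5%, 42.5% and 43.4% in sgControl, so RING1 was the larger part of the pair in each library. A processed copy of RNF2, RNF2P1, is 93.2% identical to it over 1025 aligned positions and was at 0.195 FPKM or less.

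Of the partners in canonical PRC1, neither was called. BMI1 (ENSG00000168283, chromosome 10 from 22321211 to 22331484, plus strand), known as a repressor of the CDKN2A locus, was at 16.8, 19.4 and 18.4 FPKM in sgH2AC19 and at 17.7, 17.8 and 16.9 in sgControl. Its log2 fold change was 0.06 (SE 0.0589, 95% interval −0.08 to 0.20, limma adjusted p = 0.517), with the lowest and the highest library both in sgH2AC19. The read-through gene COMMD3-BMI1, which shares exons with BMI1, was listed at 0 in every library; how the authors assigned the shared reads is not given in the sources used here.

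PCGF2 (ENSG00000277258, chromosome 17 from 38733897 to 38749817, minus strand), also called MEL18 and the closest paralog of BMI1, was at 7.63, 7.54 and 7.41 FPKM in sgH2AC19 and at 7.59, 8.45 and 8.08 in sgControl. The groups overlap by the sgControl replicate 1 library alone. The log2 fold change was −0.08 (SE 0.051, 95% interval −0.20 to 0.04, limma adjusted p = 0.277). CISD3, at 2.69 to 3.46 FPKM in sgH2AC19 and 3.40 to 3.42 in sgControl, overlaps PCGF2 on the opposite strand, and reads of the overlap cannot be told apart where strand was not used in counting.

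PCGF1 (ENSG00000115289, chromosome 2 from 74505043 to 74508580, minus strand), the PCGF subunit of the KDM2B complex, was the gene that fell. It was at 7.72, 8.95 and 7.31 FPKM in sgH2AC19 against 9.88, 10.2 and 9.95 in sgControl. All sgH2AC19 libraries lie under all sgControl libraries, and sgH2AC19 replicate 2 is the nearest to them. The means were 7.99 ± 0.855 FPKM in sgH2AC19 and 10.03 ± 0.191 in sgControl (SD, n = 3 each), a ratio of 0.797, with a log2 fold change of −0.30 (SE 0.0712, 95% interval −0.47 to −0.13, limma adjusted p = 0.0243). The call was lost without sgH2AC19 replicate 1 (adjusted p = 0.069), without sgControl replicate 1 (0.0669), 2 (0.0821) or 3 (0.0703), and with every gene above 0 FPKM in the test (0.086), with a log2 fold change between −0.37 and −0.24 over all alternatives. It rested on 484 to 616 reads in sgH2AC19 and 625 to 706 in sgControl, and PCGF6 on 767 to 913 in sgH2AC19 and 502 to 763 in sgControl.

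PCGF6 (ENSG00000156374, chromosome 10 from 103302796 to 103351144, minus strand), the PCGF subunit of the MGA and L3MBTL2 complex, lay the other way without being called. It was at 6.64, 7.74 and 6.71 FPKM in sgH2AC19 against 4.60, 6.42 and 5.59 in sgControl. The groups do not overlap, sgH2AC19 replicate 1 and sgControl replicate 2 are the nearest, and the sgControl libraries spread more than the sgH2AC19 libraries. The log2 fold change was 0.30 (SE 0.107, 95% interval 0.05 to 0.56, unadjusted p = 0.0243, limma adjusted p = 0.0809). It was called without sgControl replicate 2 (adjusted p = 0.0491) and by voom on recovered reads (0.048), and over the alternatives planned its log2 fold change ran from 0.20 to 0.40.

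A processed pseudogene, PCGF7P (ENSG00000268140), is a copy of PCGF6, 97.1% identical over 1056 aligned positions, so reads of both can be confused. PCGF7P was at 3.54, 4.00 and 3.68 FPKM in sgH2AC19 against 3.02, 1.83 and 2.63 in sgControl (log2 fold change 0.45, SE 0.125, limma adjusted p = 0.0389), and was picked out after seeing its values. All 3 sgH2AC19 libraries lie above the sgControl libraries, as for PCGF6. With the reads of both added, an alternative chosen after seeing the data, PCGF6 was at 7.87, 9.14 and 7.999 FPKM in sgH2AC19 against 5.66, 7.06 and 6.51 in sgControl and was called (log2 fold change 0.34, SE 0.0854, limma adjusted p = 0.0298).

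Together the 6 PCGF genes summed to 52.1, 58.6 and 55.7 FPKM in sgH2AC19 and 55.8, 59.3 and 55.3 in sgControl, which overlap. Within this sum BMI1 was the largest part, at 32.8% ± 0.441 in sgH2AC19 and 30.7% ± 0.893 in sgControl (SD, n = 3 each). PCGF1 held 14.8%, 15.3% and 13.1% in sgH2AC19 against 17.7%, 17.3% and 18.005% in sgControl, a lower share in each library of the first group. PCGF6 held 12.7%, 13.2% and 12.1% in sgH2AC19 against 8.25%, 10.8% and 10.1% in sgControl. The ratio of PCGF1 to PCGF6 was thus 1.16, 1.16 and 1.09 in sgH2AC19 and 2.15, 1.596 and 1.78 in sgControl. The shares and the ratio, which follows from the values of PCGF1 and PCGF6 above, are given as a description and were not tested. An exact permutation test of 3 libraries against 3 cannot go below p = 0.10. The other family members, PCGF3 and PCGF5, which act in further variant complexes, were not called: PCGF3 was at 3.44 ± 0.0811 FPKM in sgH2AC19 and 3.11 ± 0.223 in sgControl (log2 fold change 0.11, limma adjusted p = 0.205), and PCGF5 at 11.3 ± 1.38 FPKM in sgH2AC19 and 12.6 ± 0.724 in sgControl (−0.16, limma adjusted p = 0.239).

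**Figure D2:**
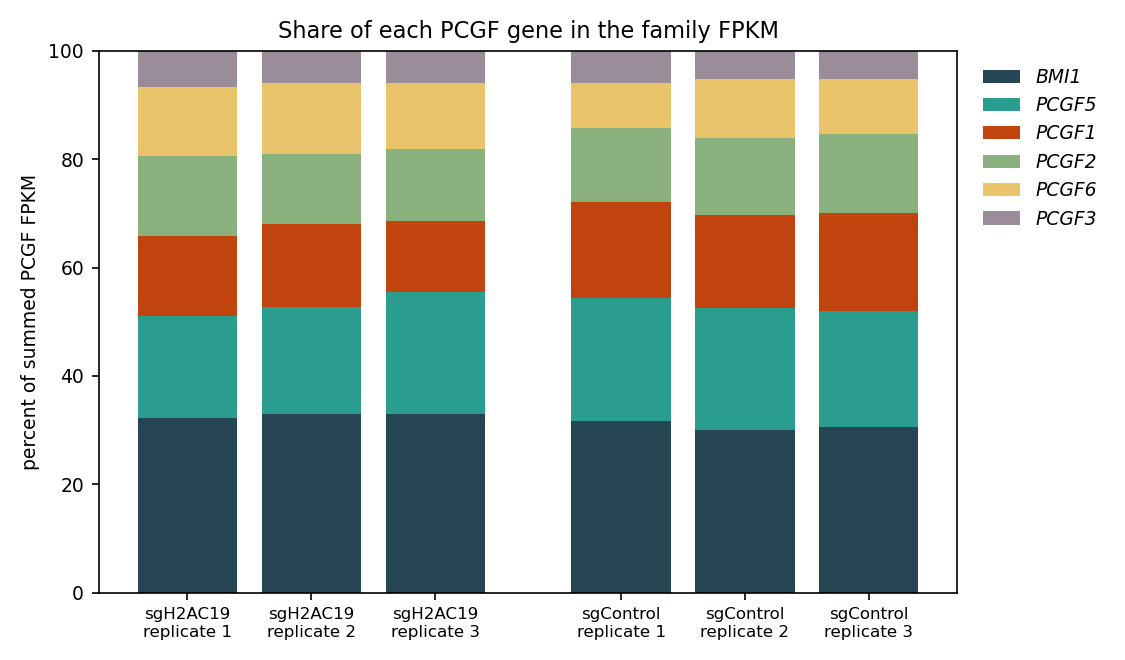
Share of each of the 6 PCGF genes in their summed FPKM (y axis, percent), 1 bar per library. BMI1 is the largest part throughout, PCGF1 takes 13.1% to 15.3% in sgH2AC19 and 17.3% to 18.005% in sgControl, and PCGF6 12.1% to 13.2% in sgH2AC19 and 8.25% to 10.8% in sgControl.

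Among the erasers BAP1 stood out by its spread. BAP1 (ENSG00000163930, chromosome 3 from 52401013 to 52410350, minus strand), the catalytic subunit of the Polycomb deubiquitinase complex, was at 6.27, 6.02 and 8.16 FPKM in sgH2AC19 against 8.74, 8.44 and 8.13 in sgControl. Replicates 1 and 2 of sgH2AC19 lie under every sgControl library, and replicate 3 lies among them. The log2 fold change was −0.28 (SE 0.1, 95% interval −0.52 to −0.05, unadjusted p = 0.0253, limma adjusted p = 0.0831), not called. Without sgH2AC19 replicate 3 it was −0.40 (SE 0.0498, limma adjusted p = 0.00301), and by voom on recovered reads −0.32 (adjusted p = 0.0355). BAP1 was not called in the other 11 of 13 alternatives. Among these it was at −0.23 without sgH2AC19 replicate 1 and −0.21 without replicate 2 (limma adjusted p = 0.2 and 0.208). On the second principal component of all genes tested (18.2% of the variance) sgH2AC19 replicate 3 was at −16, against 8.09 and 8.32 for replicates 1 and 2 and −1.28 to 0.827 for the sgControl libraries.

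ASXL1 (ENSG00000171456, chromosome 20 from 32358330 to 32439319, plus strand), which activates BAP1, was at 8.82, 8.91 and 9.31 FPKM in sgH2AC19 and at 8.39, 9.08 and 8.55 in sgControl. The groups overlap, and the log2 fold change was 0.05 (SE 0.049, 95% interval −0.07 to 0.16, limma adjusted p = 0.5). Its paralog ASXL2 fell, to 6.63, 6.70 and 6.54 FPKM in sgH2AC19 against 7.52, 7.56 and 7.64 in sgControl (log2 fold change −0.17, SE 0.0419, limma adjusted p = 0.0273), a call lost without any 1 library but sgH2AC19 replicate 3 (0.0587 to 0.0968). ASXL3 was at 0.00723 FPKM or less. BAP1 per ASXL1 was 0.712, 0.675 and 0.877 in sgH2AC19 and 1.04, 0.929 and 0.952 in sgControl, lower in all 3 sgH2AC19 libraries. This ratio was not tested, and BAP1 and ASXL1 were each not called and had overlapping groups. For single genes, the groups lay apart in 43.2% of all genes tested.

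USP16 (ENSG00000156256, chromosome 21 from 29024629 to 29054488, plus strand), which removes H2A ubiquitin as cells enter mitosis, was at 11.0, 11.7 and 10.1 FPKM in sgH2AC19 and at 10.8, 11.6 and 11.7 in sgControl. The log2 fold change was −0.05 (SE 0.0622, 95% interval −0.20 to 0.09, limma adjusted p = 0.576). MYSM1 (ENSG00000162601, chromosome 1 from 58654739 to 58700092, minus strand), a metalloprotease known for its role in blood cell development, was at 1.71, 1.78 and 1.67 FPKM in sgH2AC19 and at 1.71, 1.89 and 1.79 in sgControl. Its log2 fold change was −0.04 (SE 0.0628, 95% interval −0.19 to 0.11, limma adjusted p = 0.677). Both genes have overlapping groups.

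Set against each other, the ligase genes RING1 and RNF2 summed to 24.6, 27.8 and 23.3 FPKM in sgH2AC19 and 26.7, 28.5 and 26.2 in sgControl, which overlap. The deubiquitinase genes BAP1, USP16 and MYSM1 summed to 18.9, 19.5 and 19.9 FPKM in sgH2AC19 and 21.3, 21.9 and 21.6 in sgControl, lower in each sgH2AC19 library. This sum was not tested, and each of its genes was not called and had overlapping groups. BAP1 differed most, with a mean of 6.82 FPKM in sgH2AC19 and 8.44 in sgControl. Among all genes tested, the groups lay apart for 43.2%. The ratio of the ligase sum to the deubiquitinase sum was 1.30, 1.43 and 1.17 in sgH2AC19 and 1.26, 1.30 and 1.21 in sgControl, which overlap. These are levels of mRNA; ubiquitin on H2A was not measured.

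**Figure D3:**
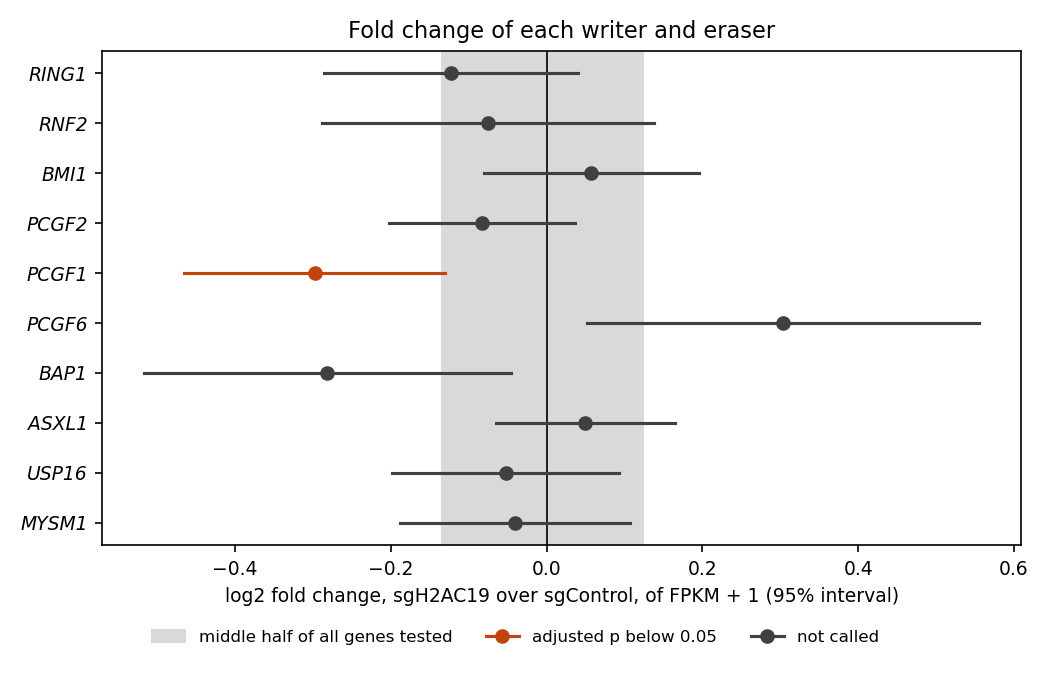
Log2 fold change of FPKM + 1, sgH2AC19 over sgControl (x axis), for each of the 10 genes, with 95% intervals from limma; the grey band spans −0.134 to 0.124, the interquartile range of the 12871 genes tested. PCGF1 at −0.30 is the one gene called, and the intervals of PCGF6 and BAP1 also leave out 0.

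Of the other PRC1 subunit genes, 22 were tested among 25 listed. Of these 5 rose, 1 fell and 16 were not called, 27.3% called, near the 23.1% of all genes and 3 to 7 genes without 1 library, with a median log2 fold change of −0.02. In the complex of PCGF1 the partners KDM2B and BCOR were called higher in sgH2AC19, while the lower ones given here were not called. KDM2B, which binds CpG islands, rose to 1.79, 1.89 and 1.85 FPKM in sgH2AC19 against 1.02, 1.06 and 1.22 in sgControl (log2 fold change 0.44, SE 0.0703, limma adjusted p = 0.00624). BCOR, a corepressor, was at 7.59 ± 0.0736 FPKM in sgH2AC19 and 6.61 ± 0.137 in sgControl (0.18, limma adjusted p = 0.0267), a call lost in 7 of 13 alternatives, among them leaving out any 1 library but sgH2AC19 replicate 3 (0.0586 to 0.103) and upper-quartile scaling (0.11). BCORL1, a paralog of BCOR, was at 3.27 ± 0.234 FPKM in sgH2AC19 and 3.81 ± 0.222 in sgControl (−0.18, limma adjusted p = 0.089), and RYBP, a subunit of variant PRC1, at 12.0 ± 0.598 FPKM in sgH2AC19 and 14.1 ± 1.81 in sgControl (−0.22, limma adjusted p = 0.111). Neither BCORL1 nor RYBP was called. For both all sgH2AC19 libraries lay under the sgControl libraries, while the groups lay apart, in either direction, for 43.2% of all genes tested. RYBP was picked out after seeing its values. YAF2, another of the PRC1 subunit genes listed, lay the other way with overlapping groups. It was at 3.22 ± 0.346 FPKM in sgH2AC19 and 2.97 ± 0.235 in sgControl (0.09, limma adjusted p = 0.45). PCGF1 per KDM2B was 4.32, 4.74 and 3.94 in sgH2AC19 and 9.67, 9.63 and 8.15 in sgControl. With PCGF1 lower and KDM2B higher in each sgH2AC19 library, this ratio had to differ and adds no separate result.

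In canonical PRC1 PHC2, a polyhomeotic subunit that clusters the complex, fell to 13.1, 13.2 and 12.5 FPKM in sgH2AC19 against 16.8, 17.6 and 16.98 in sgControl (log2 fold change −0.38, SE 0.0447, limma adjusted p = 0.00206). CBX2, a reader of trimethylated H3, rose by 0.26 and SCMH1 by 0.19; both were picked out after seeing their values. DCAF7, a WD repeat protein found with PCGF3 and PCGF5, rose to 9.62 ± 0.785 FPKM in sgH2AC19 against 7.27 ± 0.274 in sgControl (0.36, limma adjusted p = 0.009). The partners of PCGF6 were not called, with log2 fold changes of 0.07 for MGA, −0.04 for L3MBTL2 and −0.07 for E2F6. KDM2B, PHC2 and DCAF7 kept their calls under all 13 alternatives.

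**Figure D4:**
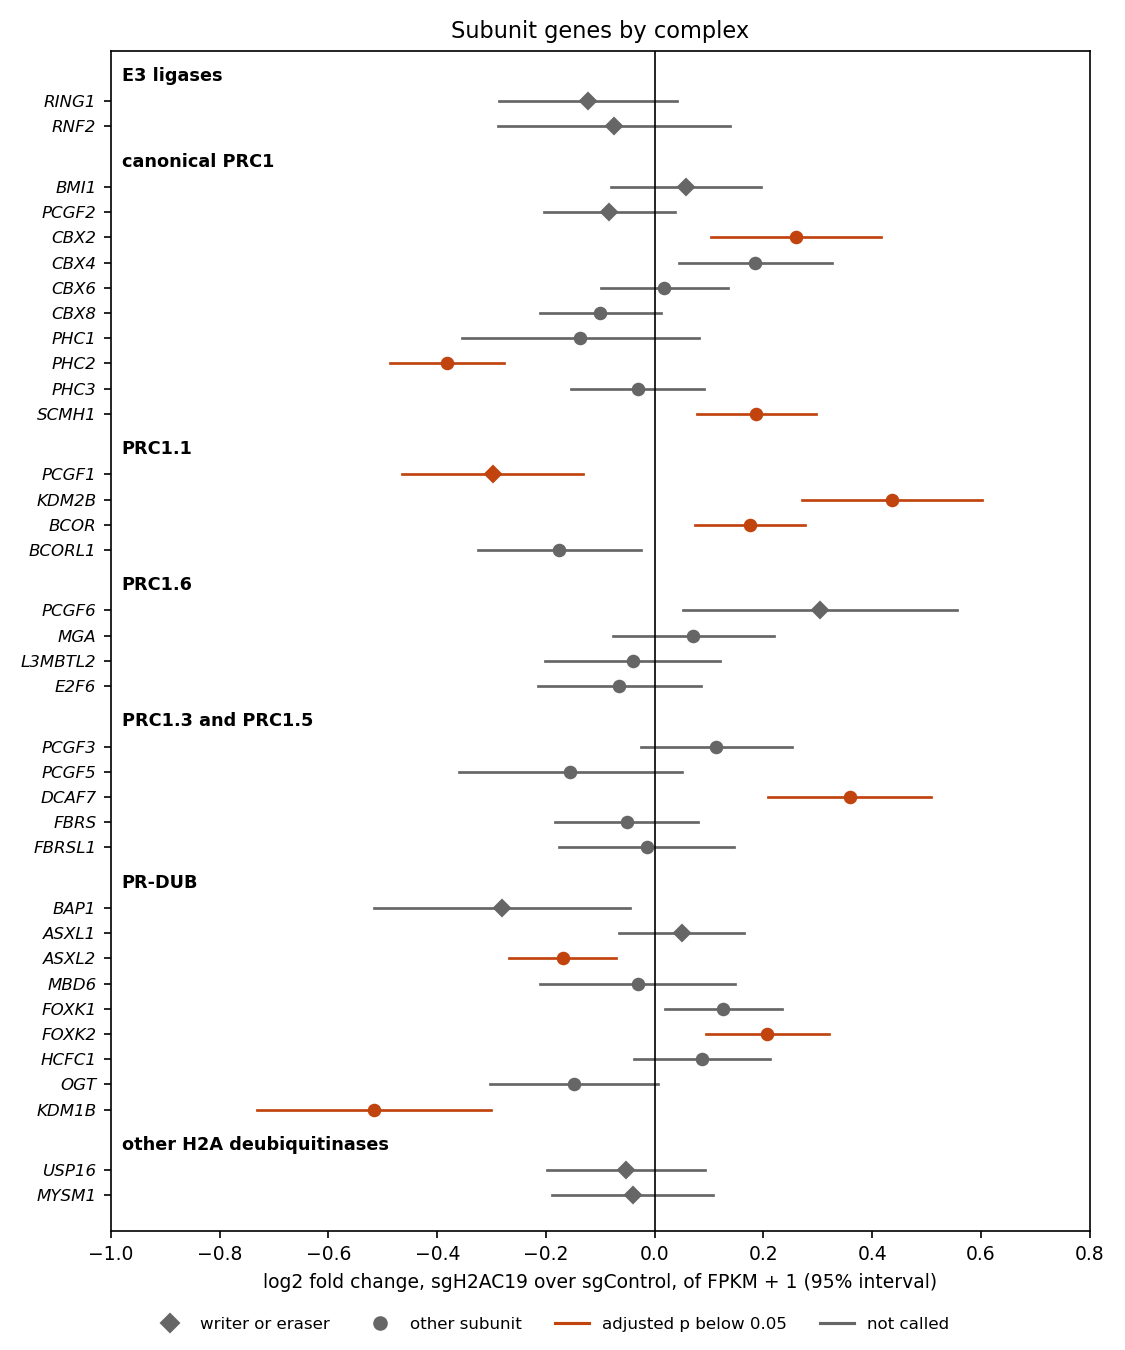
Log2 fold change of FPKM + 1, sgH2AC19 over sgControl (x axis), with 95% intervals from limma, for subunit genes grouped by complex; diamonds are the 10 writers and erasers and orange marks an adjusted p below 0.05. Beside PCGF1 at −0.30, KDM2B is at 0.44, BCOR at 0.18 and BCORL1, not called, at −0.18, and KDM1B, at −0.52, is the lowest of the genes drawn.

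Of the partners of BAP1, 8 were tested among 10 listed. Of these 2 rose, 2 fell and 4 were not called, 50% called against 23.1% of all genes; without 1 library 1 to 3 were called. KDM1B, a demethylase of histone H3, fell to 4.32, 5.12 and 5.81 FPKM in sgH2AC19 against 7.89, 7.87 and 7.22 in sgControl (log2 fold change −0.52, SE 0.0915, limma adjusted p = 0.00886), under all 13 alternatives as well. The transcription factor gene FOXK2, which brings BAP1 to DNA, was at 10.4 ± 0.494 FPKM in sgH2AC19 and 8.85 ± 0.0818 in sgControl (0.21, limma adjusted p = 0.0224). UBE2O, which ubiquitinates BAP1 itself, was at 12.3 ± 0.684 FPKM in sgH2AC19 and 9.62 ± 1.07 in sgControl (0.32, limma adjusted p = 0.0269). The call of FOXK2 was lost without sgH2AC19 replicate 1 or any 1 sgControl library (limma adjusted p = 0.0592 to 0.0795), with upper-quartile scaling (0.112) and with no filter above 0 FPKM (0.053). That of UBE2O was lost without sgH2AC19 replicate 2 or 3 or sgControl replicate 1 or 3 (0.051 to 0.0817) and with no such filter (0.0996).

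Other enzymes that act on H2A or H2B ubiquitin moved both ways. Of 13 deubiquitinase genes and cofactors tested among 16 listed, 3 rose and 1 fell, 30.8% called against 23.1% of all genes. BRCC3, which trims ubiquitin chains at sites of DNA damage, rose to 17.6 ± 0.156 FPKM in sgH2AC19 against 14.8 ± 0.352 in sgControl (log2 fold change 0.23, limma adjusted p = 0.00868, called under all 13 alternatives). USP22, the deubiquitinase of the SAGA complex, was at 40.8 ± 1.02 FPKM in sgH2AC19 and 34.5 ± 1.74 in sgControl (0.24, adjusted p = 0.0155 by limma, but 0.0539 without sgControl replicate 1, 0.0548 without replicate 2 and 0.0734 with upper-quartile scaling). USP12 was lower (−0.27) and USP42 higher (0.21), with limma adjusted p-values of 0.0285 and 0.0422. Leaving out any 1 library but sgH2AC19 replicate 3 ended both calls, with an adjusted p of 0.0539 to 0.0976 for USP12 and 0.0679 to 0.131 for USP42. Testing all genes above 0 FPKM ended both as well (0.0951 for USP12 and 0.118 for USP42), and upper-quartile scaling that of USP42 (0.129).

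Of 16 conjugation genes 2 rose and 1 fell, 18.8% called against 23.1% of all genes. UBE2D3, an E2 enzyme that works with RNF2, fell to 21.3 ± 0.425 FPKM in sgH2AC19 against 24.9 ± 0.195 in sgControl (log2 fold change −0.22, limma adjusted p = 0.00936), under all 13 alternatives as well. The H2A ligase gene DZIP3 was at 5.06 ± 0.0221 FPKM in sgH2AC19 and 4.18 ± 0.25 in sgControl (0.23, limma adjusted p = 0.0224). BRCA1, which ubiquitinates the tail of H2A with BARD1, was at 6.33 ± 0.322 FPKM in sgH2AC19 and 5.18 ± 0.376 in sgControl (0.25, limma adjusted p = 0.0287). The call of DZIP3 was lost without sgH2AC19 replicate 1 or 2 or sgControl replicate 1 or 3 (limma adjusted p = 0.0586 to 0.0842), and that of BRCA1 without sgH2AC19 replicate 2 or sgControl replicate 1 or 2 (0.0833 to 0.0988). Upper-quartile scaling (0.0699 for DZIP3 and 0.0618 for BRCA1) and testing all genes above 0 FPKM (0.0648 and 0.0917) ended both.

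PRC2, which methylates H3 and is guided in part by ubiquitinated H2A, was represented with readers of the mark by 15 genes. Of these 3 rose and 0 fell by limma, 20% called against 23.1% of all genes. At an unadjusted limma p under 0.05, 7 were higher and 0 lower, against 2400 higher and 2438 lower of all 12871 genes tested. By voom on recovered reads 6 were called, against 1817 higher and 1723 lower over all genes. JARID2, which binds ubiquitinated H2A and brings PRC2 to it, rose to 6.85, 7.23 and 7.47 FPKM in sgH2AC19 against 4.78, 5.27 and 4.81 in sgControl (log2 fold change 0.46, SE 0.0559, limma adjusted p = 0.00227), and under all 13 alternatives. The histone-binding subunit genes RBBP4 and RBBP7 were at 0.29 and 0.17 (limma adjusted p = 0.0146 and 0.0485), lost for RBBP4 without sgControl replicate 2 (0.0544) and for RBBP7 without any 1 of the 6 libraries (0.0686 to 0.152), with either other scaling (0.0666 and 0.147) and with all genes above 0 FPKM (0.108). EZH2, the methyltransferase, was at 5.71 ± 0.205 FPKM in sgH2AC19 and 4.98 ± 0.19 in sgControl, not called (0.17, limma adjusted p = 0.0527).

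Classical targets of PRC1 are the HOX clusters and the CDKN2A locus. Of 41 genes listed 20 passed the filter, and 0 rose and 1 fell by limma, 5% called against 23.1% of all genes, with 5 higher and 2 lower at an unadjusted p under 0.05 and a median log2 fold change of 0.14. Of the 20, 12 had a higher estimate in sgH2AC19, and for 8 all sgH2AC19 libraries lay above the sgControl libraries. Over all 12871 genes tested these counts were 6276 and 2761. An unadjusted limma p under 0.05 was reached by 37.6% of all genes tested. HOXB7 was the most abundant, at 14.8 ± 0.309 FPKM in sgH2AC19 and 13.4 ± 0.708 in sgControl (log2 fold change 0.14, limma adjusted p = 0.0966). HOXB9, second in level, was at 7.51 ± 0.295 FPKM in sgH2AC19 and 8.55 ± 0.225 in sgControl (−0.17, limma adjusted p = 0.0448), a call lost in 9 of 13 alternatives, among them leaving out any 1 library but sgH2AC19 replicate 3 (0.089 to 0.14), testing all genes above 0 FPKM (0.0952), median-ratio scaling (0.0617) and voom (0.0812). HOXB3 was at 0.14 (limma adjusted p = 0.0871), and HOXC8 at −0.08 (adjusted p = 0.727 by limma), or 0.08 without sgControl replicate 3. CDKN2A was listed at 0 in every sgH2AC19 library and at 0.00651 FPKM or less in sgControl, and CDKN2B at 0 in all libraries. A549 is known for a homozygous deletion of this locus, so these values give no readout of PRC1.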

How the data were processed

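Per the labels' protocols, a spin-column kit was used for RNA and a SMARTer kit for mRNA-seq libraries. The deposited table holds FPKM computed by the authors, per the file headers, in a column for each library; no aligner, counter, strand setting or annotation is given in the sources used here. The submitters' processing notes name GRCm38 and mm10, both of mouse, although the 62700 IDs are all human. The sgNC columns belong to sgControl and the sgH2AC columns to sgH2AC19, by elimination, and the number is the replicate.

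Values were kept for genes that reached 1 FPKM in 3 or more libraries, taken as log2(FPKM + 1), and compared with limma (3.58.1, R 4.3.3, trended prior variance) over all 12871 genes, two-sided, Benjamini-Hochberg adjusted, threshold 0.05. Fold changes on this scale understate those of low genes. SDs are those of FPKM, and limma gave SEs and 95% intervals. The steps were tested on simulated data. Whole reads were recovered from the spacing of the values with gene lengths of GENCODE 29, within 0.001 reads, for 12869 of the genes tested; where the annotated length gave no whole reads, the smallest length that did was taken. Copies were aligned with BLAST 2.17.0. Alternatives were another pseudocount, other filters, median-ratio and upper-quartile scaling, the replicate number as a block, voom on recovered reads and leaving out each library. Other steps used Python 3.11.15, pandas 2.3.3 and matplotlib 3.10.9.

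The 10 genes and the lists were chosen with earlier results of these data known, and lists were not tested as sets. The text names all 10 genes, for each list up to 4 called genes by smallest adjusted p, the paralogs PCGF3, PCGF5, ASXL2 and ASXL3, EZH2, CDKN2A and the 4 HOX genes of highest mean FPKM; others named are subunits of the same complexes.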

Additional observations from a re-analysis of the deposited data

How the results depend on the processing

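No scaling moved the median log2 fold change of all genes by more than 0.027. Of the 10 genes, 0 were called higher and 1 lower; 1 was called higher with the replicate block, with voom on recovered reads and with the reads of PCGF7P added to PCGF6, in each case PCGF6. With all genes above 0 FPKM 0 were called lower, with voom 2, and leaving out 1 library gave 0 to 1 higher and 0 to 2 lower. No gene of the 10 changed direction under any alternative.

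Over all genes tested, 1545 were called higher and 1422 lower. The counts were 900 and 653 with all genes above 0 FPKM, and 904 to 1784 higher and 609 to 1645 lower without 1 library. Calls among other PRC1 subunits (6) were 3 with upper-quartile scaling and 3 to 7 without 1 library. Those among BAP1 partners (4) were 2 with all genes above 0 FPKM and 1 to 3 without 1 library. Those among other deubiquitinases (4) were 2 with all genes above 0 FPKM, 2 with upper-quartile scaling and 1 to 4 without 1 library. Those among conjugation genes (3) were 1 with all genes above 0 FPKM, 5 with voom and 1 to 3 without 1 library. Those among PRC2 genes and readers (3) were 6 with voom and 1 to 3 without 1 library. The 1 call among HOX genes went to 0 with all genes above 0 FPKM, with median-ratio scaling and with the replicate block, and was 0 to 1 without 1 library. With voom 1 HOX gene was called, but it was not HOXB9. The cause of these shifts was not tested. HOXC8, not called, ran from −0.185 to 0.080 when 1 library was left out, the positive end without sgControl replicate 3. Of 19 other named genes that were called, 7 were called under all 13 alternatives.

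Libraries with the same number did not qualify as pairs. The correlations of their deviations from the group means were 0.0524, 0.0346 and 0.0602, and each library correlated best with its own number, which is a hint from the data and not the design. With the replicate block 1406 genes were called higher and 1323 lower, and PCGF6 had an adjusted p of 0.0304 by limma. The replicate block ended the calls of ASXL2 (adjusted p = 0.0625), BCOR (0.0574), USP42 (0.0731), RBBP7 (0.0561) and HOXB9 (0.0678).

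PCGF1 and PCGF6 rested on the fewest reads, 484 to 706 and 502 to 913 per library. MYSM1, at the lowest FPKM, had 1726 or more. For a gene of the 10 that was not called, the 95% interval beside its fold change gives the differences that these 3 libraries a group leave possible.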
